A study of Mus musculus with 58 samples.

Results

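The protease-activated receptors are the cell-surface receptors through which thrombin and related serine proteases act on cells. Their genes on the array were taken by name: F2r, and every gene whose name begins with F2rl. This rule gave 4 of the 381 genes measured, F2r, F2rl1, F2rl2 and F2rl3, each with 1 CpG, written in the files as F2r-117, F2rl1-589, F2rl2-386 and F2rl3-672. Methylation was read in genomic DNA of dissected mouse brain with a GoldenGate bead array that Illumina made to order. Bisulphite turns unmethylated cytosine into uracil and leaves methylated cytosine, and probes for both outcomes are read at each CpG. The beta value gives the part of the total signal that comes from the methylated outcome, from 0 (none) to 1 (all).

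Protease-activated receptors are G-protein-coupled receptors that carry their own ligand. A protease cuts the extracellular end of the receptor, and the new end folds back and switches the receptor on. Thrombin cleaves the products of F2r (PAR1), F2rl2 (PAR3) and F2rl3 (PAR4), whereas the product of F2rl1 (PAR2) is activated chiefly by trypsin-like proteases and not by thrombin. In mouse platelets PAR3 acts as a cofactor that presents thrombin to PAR4. In brain, PAR1 is known from neurons and astrocytes, where its activation affects calcium signalling and synaptic transmission.

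The samples fall into 13 groups. Those of 11 regions came from C57BL/6 mice, 10 of them labelled healthy and the frontal cortex labelled wild type: 6 samples each of caudate-putamen (CPU), the granular cell layer (GCL) and substantia nigra (SN), 5 each of basolateral amygdala (BLA), dentate gyrus (DG), globus pallidus (GP), hypothalamus (HYP) and thalamus (TH), 4 each of hippocampal CA3 and Purkinje cells (PC), and 2 of frontal cortex (FC_WT), in all 53 samples. Mice with the genotype 3TG, on a background given as C57BL/6-129, gave 3 samples of frontal cortex (FC_3TG) and 1 of CA1 (CA1_3TG), so genotype and background cannot be told apart. The labels give no age, do not say what the letters F and M of the sample codes stand for, and do not state whether each sample is an animal of its own, so a p-value reflects only how far these samples scatter, which may be technical. The 58 arrays had mean beta values of 0.249 to 0.294 with 0 values missing, and their number limits the precision. FC_WT and DG F7, F8 and F9 share a form of title, beginning with WT, that no other sample has. No gene that defines a single region was on the marker lists, and the region labels were not checked against such genes.

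Of the 4 genes, 3 have a promoter window in RefSeq (GRCm38.p6, 250 bases before to 50 after the gene's start), shown here for the number of CGs, the sites at which methylation can be read. F2r, F2rl1 and F2rl2 lie on a single chromosome in that annotation, with F2r in the middle, while F2rl3 lies on another. Wholly inside the gap between F2r and either of the others there were 0 protein-coding genes. Genes that overlap an end of a gap were not counted. The windows are F2r at chr13:95618417-95618716 (minus strand), F2rl2 at chr13:95696670-95696969 (plus strand) and F2rl3 at chr8:72761409-72761708 (plus strand), each printed 5′ to 3′ along its gene with every CG in capitals.
F2r: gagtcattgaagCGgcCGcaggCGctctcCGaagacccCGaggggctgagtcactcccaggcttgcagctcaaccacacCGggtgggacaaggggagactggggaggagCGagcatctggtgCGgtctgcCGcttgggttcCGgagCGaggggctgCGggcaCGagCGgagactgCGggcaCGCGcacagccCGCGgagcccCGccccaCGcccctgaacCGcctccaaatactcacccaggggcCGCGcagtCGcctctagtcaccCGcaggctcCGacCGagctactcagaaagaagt
F2rl2: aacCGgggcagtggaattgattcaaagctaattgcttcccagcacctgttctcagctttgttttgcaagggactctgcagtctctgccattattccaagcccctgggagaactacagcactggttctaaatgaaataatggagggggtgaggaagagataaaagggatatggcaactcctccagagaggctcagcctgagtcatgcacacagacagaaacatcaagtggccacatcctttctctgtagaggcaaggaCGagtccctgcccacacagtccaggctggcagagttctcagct
F2rl3: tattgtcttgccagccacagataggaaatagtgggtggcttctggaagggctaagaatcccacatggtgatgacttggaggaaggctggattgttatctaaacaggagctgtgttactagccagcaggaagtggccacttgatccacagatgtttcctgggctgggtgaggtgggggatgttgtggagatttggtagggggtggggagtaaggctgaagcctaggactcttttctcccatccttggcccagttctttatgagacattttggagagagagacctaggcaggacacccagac
The motif searched was CG, which reads the same on both strands. The F2r window holds 28 CGs at a GC content of 68.7%, and 85.8% of the 32851 windows in the table have fewer. F2rl2 has 2, at positions -247 and 8 from the gene's start, and 76.7% of windows have more. The F2rl3 window has 0, with 94.6% of windows holding more, so the CpG measured at F2rl3 is not in these 300 bases of the reference. The sources used here do not give the places of the other measured CpGs.

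Over the 53 samples of the 11 regions, F2rl1 was nearly unmethylated, with a mean beta of 0.0789 (lowest 0.0511, highest 0.106). F2r was intermediate at 0.418 (0.261 to 0.603). F2rl3 averaged 0.762 (0.572 to 0.846) and F2rl2 averaged 0.818 (0.518 to 0.952), with ranges that overlapped each other and that of F2r. F2rl1 was below F2r in every sample, and F2r was below F2rl3 in every sample. Beta values of different probes are not on a shared calibration, so this order is a description only.

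**Figure D1:**
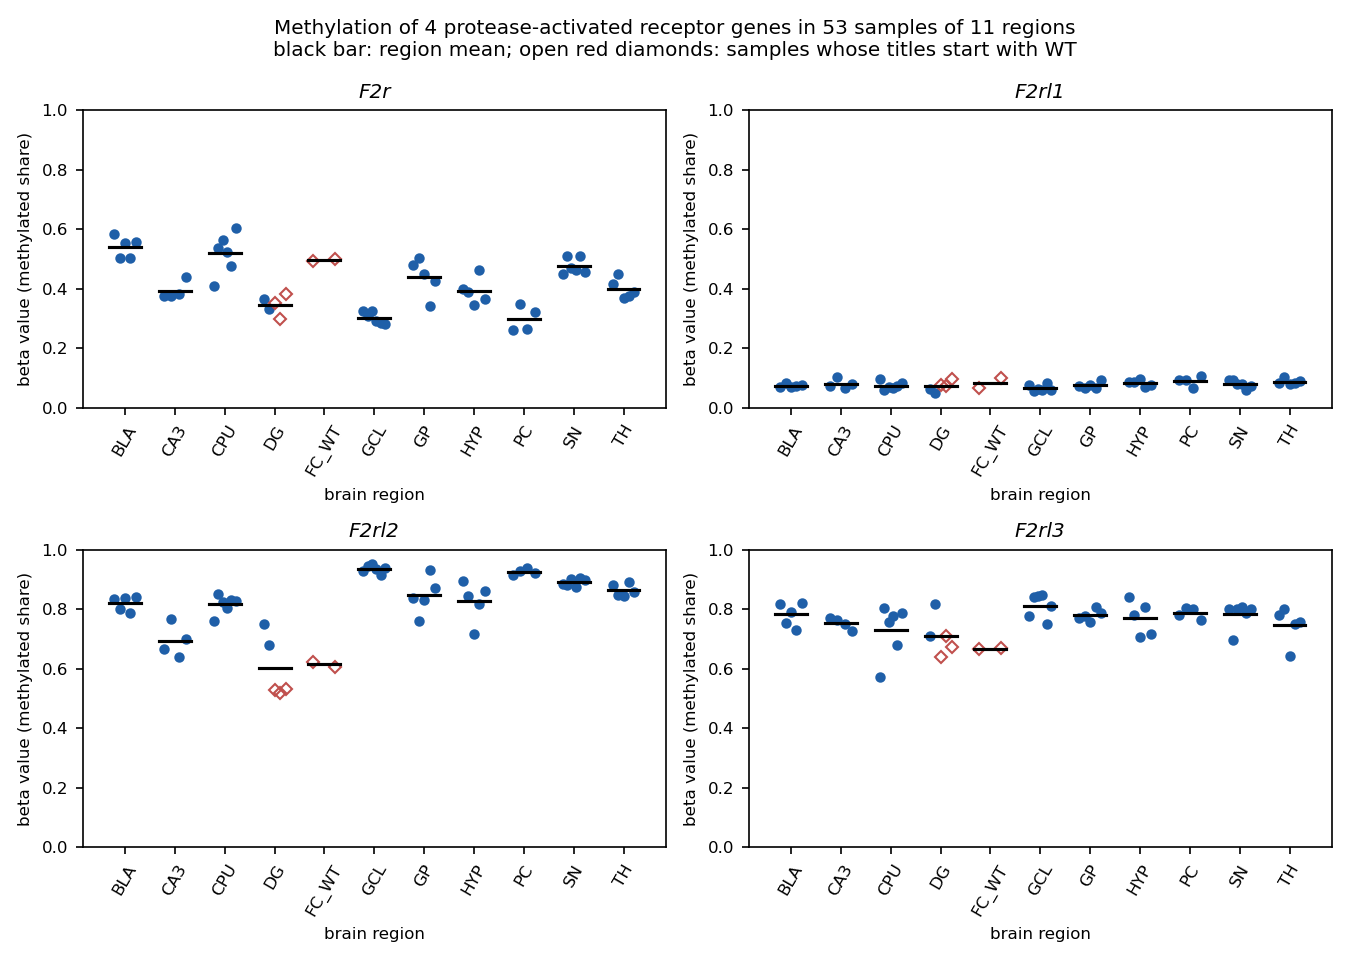
Beta value (vertical axis, methylated share from 0 to 1) of each gene in the 53 samples of 11 regions (horizontal axis). Points are samples, black bars are region means and open red diamonds are samples with titles that begin with WT. F2rl1 stays between 0.0511 and 0.106 in all regions, while F2rl2 drops to means of 0.602 in DG, 0.615 in FC_WT and 0.693 in CA3.

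Of the 4 genes, 3 differed between regions (limma F-test over 11 regions, adjusted p under 0.05), against 44.5% of all 382 CpGs. F2rl2 had an adjusted p of 5.38e-15 and the 12th smallest p of the array, and F2r had an adjusted p of 3.82e-12 and the 24th smallest. F2rl3 passed narrowly (adjusted p = 0.0369), and F2rl1 did not pass (adjusted p = 0.276). The share of the variance that lay between regions was 86.2% at F2rl2, 82.2% at F2r, 36.3% at F2rl3 and 25.4% at F2rl1, beside a median of 34.3% over all CpGs. In bulk tissue a different mix of cells and a different methylation within cells cannot be told apart, which holds for every regional difference given here.

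F2r, the gene of the main thrombin receptor of many cell types, was high in the amygdala and striatum and low in both cerebellar layers. In BLA the 5 samples had beta values of 0.584, 0.503, 0.555, 0.505 and 0.556. The 6 CPU samples ran from 0.411 to 0.603 with a median of 0.532. At the other end, the 4 PC samples were at 0.261, 0.349, 0.265 and 0.323, and the 6 GCL samples ran from 0.281 to 0.327 with a median of 0.301. Every BLA and CPU sample was above every PC and GCL sample.

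Mean F2r methylation was 0.541 ± 0.0354 (SD, n = 5) in BLA against a mean of 0.407 for the other 10 regions, a log2 difference of 0.80 (adjusted p = 1.39e-05, limma). All log2 differences here are of log2(beta / (1 - beta)). CPU was also higher, with a mean of 0.520 ± 0.0677 (SD, n = 6) and a difference of 0.66 (adjusted p = 1.07e-05). GCL, at 0.304 ± 0.0201 (SD, n = 6), fell below the other regions by 0.79 (adjusted p = 9.32e-08). PC, at 0.299 ± 0.0434 (SD, n = 4), was lower with a log2 difference of -0.82 (adjusted p = 2.51e-06). In total F2r differed from the other regions in 7 of 11 contrasts, 4 higher and 3 lower. Over all CpGs and regions 15.9% of such contrasts passed. In the direction found, 6.54% of CpGs passed in BLA, 5.76% in CPU, 14.1% in GCL and 11.8% in PC.

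The 3 remaining F2r calls were less firm. In SN the 6 samples ran from 0.449 to 0.510 with a median of 0.467, higher than the other regions by 0.39 (adjusted p = 0.0113, 12.6% of CpGs higher). That call was lost without SN M3 (adjusted p = 0.0606) and with quantile normalization, where the difference was 0.19 (adjusted p = 0.353). FC_WT, with samples at 0.494 and 0.499, was higher by 0.51 (adjusted p = 0.0276, 4.19% of CpGs higher), a call that was lost without either sample (adjusted p = 0.186 and 0.195). The 5 DG samples were at 0.367, 0.333, 0.353, 0.299 and 0.383, and DG was lower with a difference of -0.47 (adjusted p = 0.0034, 16.2% of CpGs lower). Without DG F7 to F9 the difference was -0.45 (adjusted p = 0.26), and their F2r mean of 0.345 was close to the 0.350 of the other DG samples.

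Ordered by mean, F2r rose from PC through GCL, DG, HYP, CA3, TH, GP, SN, FC_WT and CPU to BLA. No 2 neighbours in this order differed beyond their spread. Among all 55 pairs of regions 33 differed, a share of 60% beside 14% over all CpGs (p-values adjusted over all pairs and CpGs together). BLA and CPU each differed from 7 other regions, and GCL and PC each from 8. The end regions of this order lay 0.241 apart in beta.

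F2rl2, whose product is the thrombin cofactor of mouse platelets, was low in the hippocampal fields and frontal cortex and close to fully methylated in the cerebellar layers. The DG samples F3 and M2 had beta values of 0.751 and 0.679, and F7, F8 and F9 had 0.527, 0.518 and 0.532. FC_WT was at 0.624 and 0.607, and the 4 CA3 samples were at 0.665, 0.766, 0.639 and 0.700. PC was at 0.916, 0.927, 0.938 and 0.923, and the 6 GCL samples ran from 0.916 to 0.952 with a median of 0.937. No sample of the first 3 regions reached the lowest PC or GCL sample.

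Mean F2rl2 methylation was 0.602 ± 0.107 (SD, n = 5) in DG, a log2 difference of -1.82 from the other regions (adjusted p = 2.77e-09, limma). FC_WT, at 0.615 ± 0.012 (SD, n = 2), differed by -1.76 (adjusted p = 2.11e-05), and CA3, at 0.693 ± 0.0548 (SD, n = 4), by -1.20 (adjusted p = 0.00082). In CA3 2.09% of CpGs were lower, in DG 16.2% and in FC_WT 27.5%. GCL was higher by 1.77 (mean 0.936 ± 0.0129, SD, n = 6; adjusted p = 3.36e-11; 8.12% of CpGs higher). PC was higher by 1.52 (mean 0.926 ± 0.009, SD, n = 4; adjusted p = 2.77e-07), where 34.8% of CpGs were higher and the median CpG was shifted by 0.20. In FC_WT the median shift was -0.19, and in the other regions the median CpG moved by less than 0.1.

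The regions between these ends overlapped. SN ran from 0.876 to 0.903 over 6 samples (median 0.892) and was higher than the other regions by 0.83 (adjusted p = 0.000838). TH had 0.880, 0.849, 0.843, 0.891 and 0.859, and its difference of 0.45 did not pass (adjusted p = 0.217). BLA lay between 0.786 and 0.842, CPU between 0.760 and 0.851, HYP between 0.716 and 0.896, and GP between 0.761 and 0.932, none with a call. HYP F4 at 0.716 and GP M3 at 0.932 stood farthest from their region means.

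F2rl2 fell into tiers. From the lowest mean the order was DG, FC_WT, CA3, CPU, BLA, HYP, GP, TH, SN, PC and GCL. Among the 10 steps between neighbours, that from CA3 to CPU was the only one larger than the spread, at 0.98 (adjusted p = 0.0089). DG, FC_WT and CA3 showed no difference among themselves that passed, and each differed from all 8 other regions. Without DG F7 to F9, DG no longer differed from BLA (adjusted p = 0.0752) or CPU (adjusted p = 0.0807), and still differed from the other 6. GCL differed from 9 regions, all but PC. In all, 37 of 55 pairs differed, 67.3% against 14% over all CpGs. F2rl2 is among the genes for which the study is known, so its wide regional range is not independent evidence.

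The low F2rl2 values of FC_WT and of part of DG came from samples with the same form of title. DG F7 to F9 averaged 0.5257 ± 0.00696 (SD, n = 3) and DG F3 and M2 averaged 0.715. With F7 to F9 left out, DG was still lower than the other regions, by a smaller log2 difference of -1.10 (adjusted p = 0.0322). CA3, which holds no such sample, had -1.27 in that fit (adjusted p = 7.64e-05), and -1.47 (adjusted p = 4.51e-06) with FC_WT left out as well. With the title form as a covariate the FC_WT difference was -0.64 and no longer passed (adjusted p = 0.579). In that fit the title term came only from DG, F7 to F9 against F3 and M2, as both FC_WT samples have a WT title. The lost call is therefore no evidence from FC_WT itself. Between the 2 sets of DG samples 42.1% of all CpGs did not overlap, and 3 of the 4 receptor genes did not, F2rl2, F2rl1 and, by a small gap, F2rl3. F2rl3 averaged 0.674 in F7 to F9 and 0.764 in F3 and M2, and F2rl1 averaged 0.0841 and 0.0576. Gfap, an astrocyte marker, also moved with the split, from 0.597 in F3 and M2 to 0.384 in F7 to F9. Its part in the result was not tested.

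**Figure D2:**
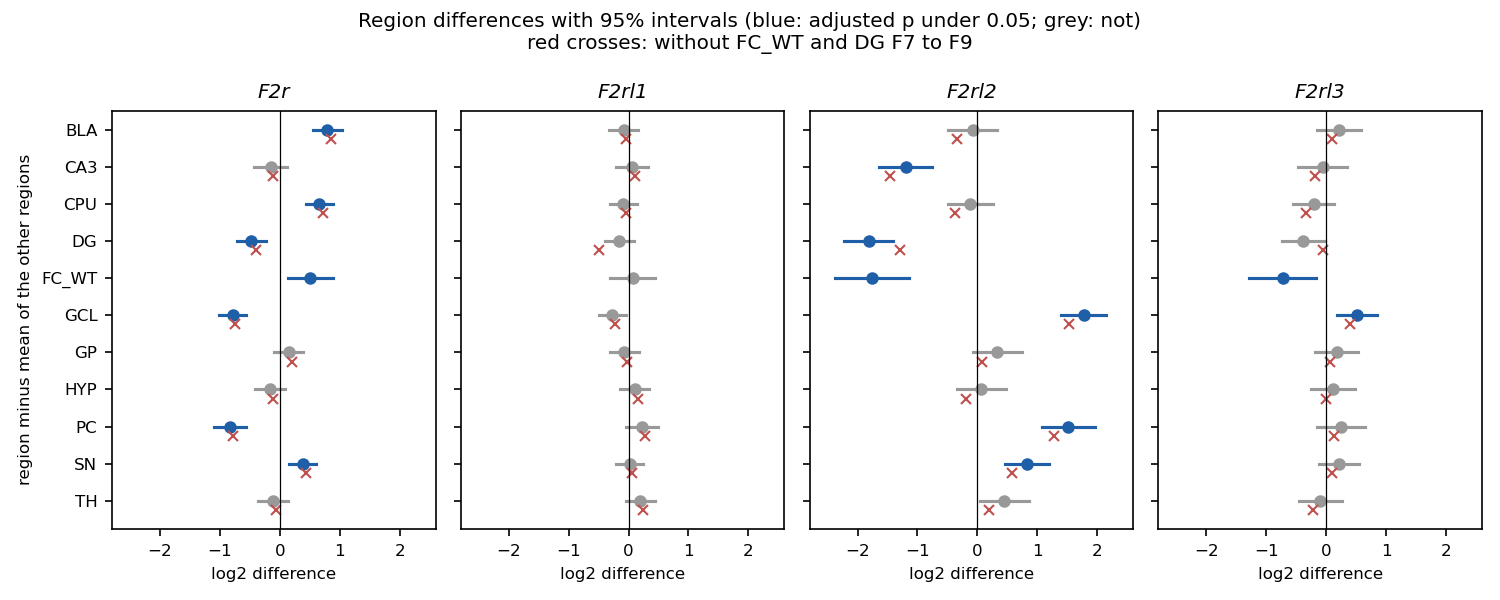
Each region minus the mean of the other regions (horizontal axis, log2 scale) for the 4 genes, with 95% intervals. Blue marks an adjusted p under 0.05, grey the rest, and red crosses the fit without FC_WT and DG F7 to F9. The F2rl2 interval of GCL runs from 1.40 to 2.15 and that of DG from -2.22 to -1.41, while the 11 intervals of F2rl1 stay close to 0.

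F2rl3, the receptor that carries the thrombin signal in mouse platelets, was mostly methylated in all regions, with a wide spread in some. Its region means spanned 0.144, beside a median of 0.0496 over all CpGs. In CPU its 6 samples ran from 0.572 (F1) to 0.804 with a median of 0.768, and in TH the 5 were at 0.780, 0.802, 0.642, 0.751 and 0.756. The 6 GCL samples ran from 0.749 to 0.846 with a median of 0.827. FC_WT was at 0.666 and 0.670, below every GCL sample. These ends gave the only calls: GCL was higher than the other regions by 0.51 (mean 0.812 ± 0.0409, SD, n = 6; adjusted p = 0.019), and FC_WT was lower by a log2 difference of -0.73 (mean 0.668 ± 0.00238, SD, n = 2; adjusted p = 0.0383). In GCL 8.12% of all CpGs were higher. In FC_WT 27.5% were lower, and the median CpG was shifted by -0.19.

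Both calls depended on single samples. GCL lost its call without F2, F4 or M1 (adjusted p of 0.0755 to 0.0841) and FC_WT without either of its samples (adjusted p = 0.235 and 0.2). The FC_WT call was also lost with arrays centred (-0.43, adjusted p = 0.325) and with quantile normalization (-0.30, adjusted p = 0.161). The F-test was lost on leaving out any of 9 samples, FC_WT 1_a and 3, DG F7, F8 and F9, and GCL F2, F4, M1 and M4, with adjusted p-values from 0.0533 to 0.0916. Only 3 of 55 pairs differed, or 5.45%, below the 14% of all CpGs: GCL was above CPU (adjusted p = 0.038), DG (adjusted p = 0.0116) and FC_WT (adjusted p = 0.0089). From the lowest mean the order was FC_WT, DG, CPU, TH, CA3, HYP, GP, SN, BLA, PC and GCL, with no neighbours that differed beyond their spread.

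F2rl1, the trypsin-activated member, showed no regional difference that passed. The region means were lowest in GCL (0.0677 ± 0.0106, SD, n = 6) and highest in PC (0.0904 ± 0.0158, SD, n = 4). GCL samples lay between 0.0565 and 0.0832 (median 0.0634), and PC samples were at 0.093, 0.094, 0.0684 and 0.106, so that these ends overlapped. With limma 0 of 55 pairs and 0 of 11 region contrasts passed, and at an unadjusted p under 0.05 there were 3 pairs and 1 region. The widest contrast was GCL at -0.27 with an interval of -0.50 to -0.05. Without DG F7 to F9, the DG contrast was -0.50 (interval -0.85 to -0.16, adjusted p = 0.154) and 5 pairs passed, 3 of them with DG lower, such as DG minus PC at -0.69 (adjusted p = 0.0168). The array does not show that the regions are alike.

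F2r and F2rl2 did not run in parallel. Over the 11 region means, F2r and F2rl2 had a Pearson correlation of -0.35 and a Spearman correlation of -0.36. GCL and PC combined low F2r with high F2rl2, whereas DG and CA3 had F2r means of 0.347 and 0.393 with low F2rl2. FC_WT combined an F2r mean of 0.497 with low F2rl2. F2rl2 and F2rl3, in contrast, had a correlation of 0.86 (Spearman 0.82) over the region means. Both had their lowest means in DG and FC_WT, the regions that hold the WT-titled samples. This correlation was not computed without those samples. All these correlations are descriptions over 11 points whose values come from the same arrays.

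**Figure D3:**
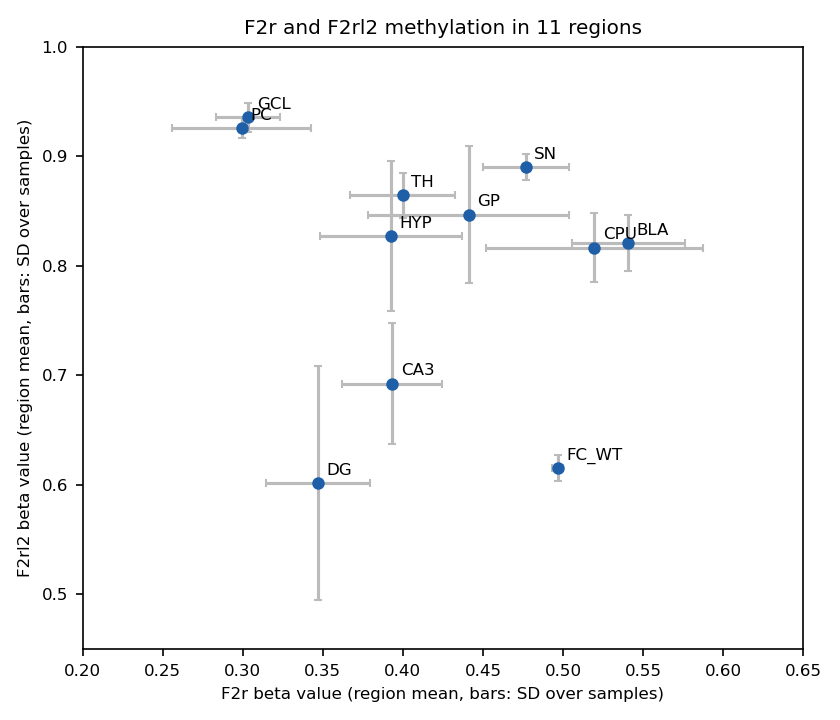
Region means of F2r (horizontal axis, beta value) and F2rl2 (vertical axis, beta value) in the 11 regions, with bars for the SD over samples. GCL and PC lie at the upper left with F2r near 0.300 and F2rl2 above 0.92. FC_WT lies to the right of DG and CA3, slightly above DG and below CA3.

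Samples of the same region were next compared with their region mean, to see whether the genes deviated together. F2rl2 and F2rl3 did so, with a Pearson r of 0.51 over 53 samples (two-sided permutation test within regions, p = 0.00014, adjusted over 6 pairs of genes 0.00084). Spearman's rho was 0.56 (adjusted p = 0.00042). Without GP M3 and HYP F4, the 2 samples farthest out at F2rl2, r was 0.50, and without the WT-titled samples it was 0.46 (n = 48). With each array centred it was 0.64, and the median over all pairs of CpGs was 0.12. The permutation did not keep same-coded samples together. Over all CpGs their deviations had a median correlation of 0.33, beside -0.07 for other pairs of samples. The permutation p-values given here and for the other pairs of genes may therefore be too small.

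F2rl1 moved against both. Its deviations had an r of -0.45 with F2rl3 (adjusted p = 0.00621; rho -0.35, adjusted p = 0.0262) and of -0.36 with F2rl2 (adjusted p = 0.0384; rho -0.38, adjusted p = 0.0262). These values were -0.37 and -0.30 without the 2 samples farthest out at F2rl1, DG M2 and F9. Without the WT-titled samples they were -0.41 and -0.24 (n = 48). They dropped to -0.18 and -0.19 once each array was centred on its median. F2r and F2rl3 had an r of 0.34 (adjusted p = 0.0606), which was 0.57 with arrays centred. F2r had an r of -0.04 with F2rl1 and with F2rl2 (adjusted p = 0.844 for both).

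**Figure D4:**
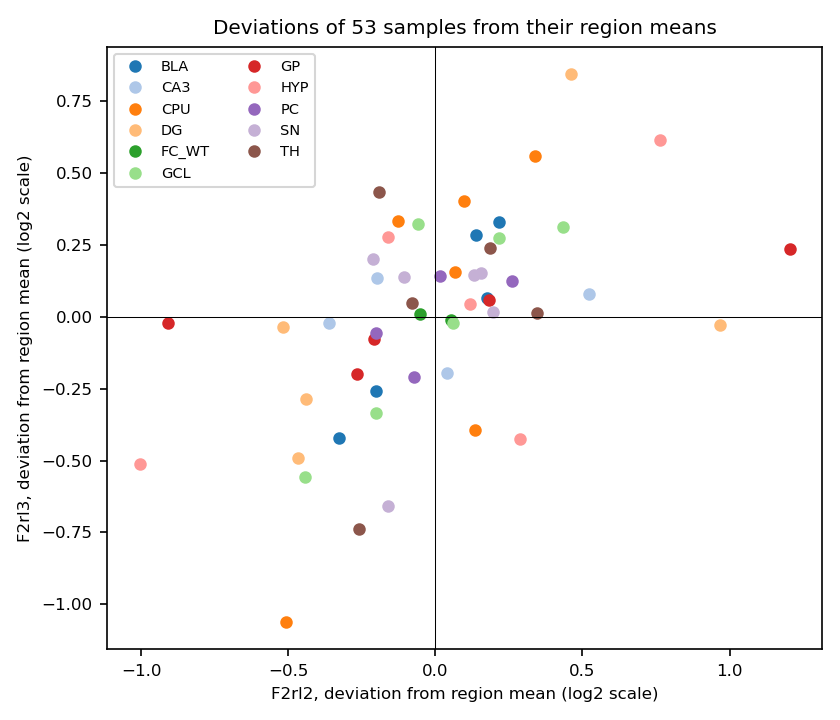
Deviation of each of the 53 samples from its region mean at F2rl2 (horizontal axis, log2 scale) and at F2rl3 (vertical axis, log2 scale), coloured by region. Samples above their region mean at F2rl2 tended to be above it at F2rl3, with r = 0.51.

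CPU M4 had 2 arrays, titled M4_a and M4_b, which were taken as 1 sample and averaged, although the labels do not say what these suffixes mean. The beta values of the 2 arrays were 0.635 and 0.572 at F2r, 0.860 and 0.797 at F2rl2, and 0.843 and 0.730 at F2rl3. F2rl3 differed by 0.114 between them, and the median CpG by 0.023. Their correlation over all CpGs was 0.987, within the 0.966 to 0.997 found between CPU arrays. F2rl1 differed by 0.00935.

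Frontal cortex of 3TG mice was compared with that of wild-type mice to find whether the genotype, with its background, went with a difference. F2r was at 0.268 (F10), 0.241 (2_a) and 0.475 (F12) in 3TG and at 0.494 and 0.499 in wild type. All 3 of the 3TG samples lay below both wild-type samples, F12 by little. The means were 0.328 ± 0.128 (SD, n = 3) and 0.497 ± 0.00364 (SD, n = 2), a log2 difference of -1.07 (95% interval -1.62 to -0.52; adjusted p = 0.0232, limma over all 13 groups). It was 1 of 5 CpGs called, 1.31% of the array.

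The F2r call rested on few samples. It was lost without F10 (-0.88, adjusted p = 0.291), 2_a (-0.78, adjusted p = 0.35) or either wild-type sample (adjusted p = 0.216 and 0.234), and without F12 the difference was -1.53 (adjusted p = 8.37e-05). With the spread taken from the 5 frontal cortex samples alone it did not pass (adjusted p = 0.232).

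F2rl2 went the other way. It was at 0.810, 0.790 and 0.740 in 3TG and at 0.624 and 0.607 in wild type, with no overlap. The means of 0.780 ± 0.0361 (SD, n = 3) and 0.615 ± 0.012 (SD, n = 2) differed by 1.16 (95% interval 0.39 to 1.93). In limma over all groups this did not pass after adjustment (adjusted p = 0.188, unadjusted p = 0.00394). It did pass on untransformed beta values (adjusted p = 0.0273) and with the frontal cortex samples alone (adjusted p = 0.00681). A further fit had a covariate for titles that begin with a genotype, those of the WT-titled samples and of 3TG sample 2_a. There the difference was 0.68 (adjusted p = 0.866) and that of F2r was -1.29 (adjusted p = 0.0089). In that fit the title term came only from DG, F7 to F9 against F3 and M2, and from 3TG 2_a against F10 and F12. Neither change is therefore evidence from the wild-type samples. The wild-type samples carry a WT title and the 3TG samples do not, so the WT title and the genotype cannot be told apart within frontal cortex.

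F2rl3 had almost the same level in all 3TG samples, at 0.637, 0.639 and 0.639, just below the wild-type samples (log2 difference -0.19, adjusted p = 0.999). F2rl1 overlapped, at 0.0762, 0.071 and 0.0731 against 0.067 and 0.0995 (-0.17, adjusted p = 0.999). Of the 4 genes, 3 had groups that did not overlap, F2r and F2rl3 lower and F2rl2 higher, beside 29.8% of all CpGs.

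**Figure D5:**
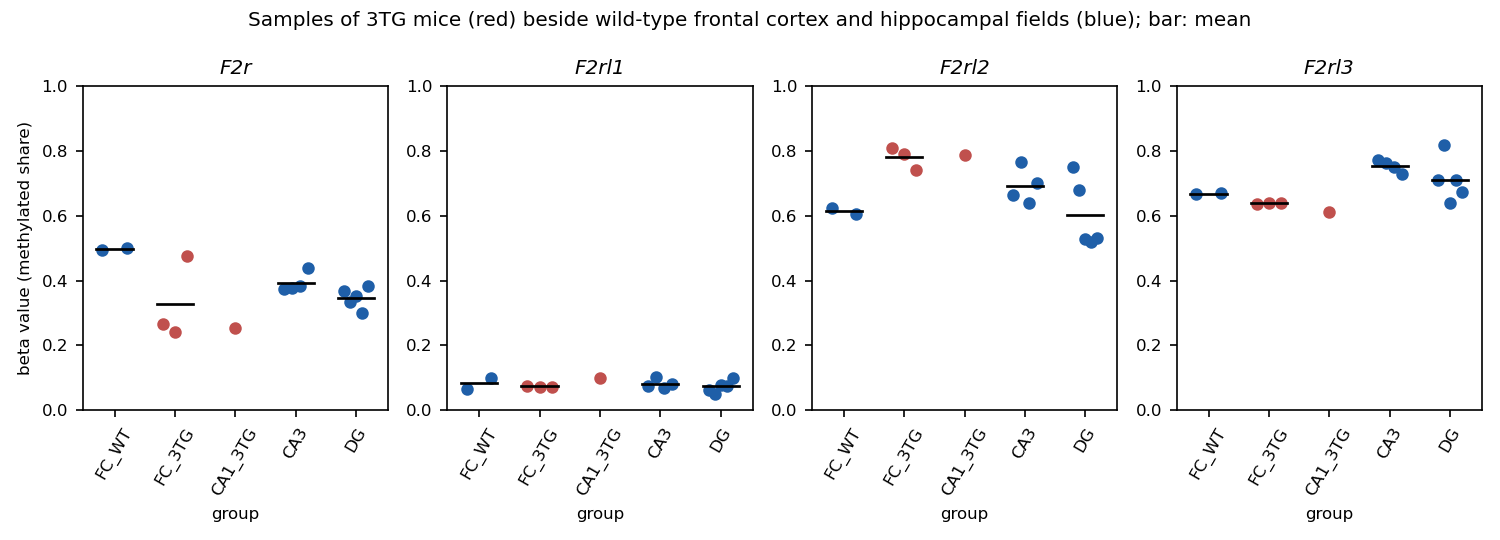
Beta value (vertical axis) of the 4 genes in wild-type frontal cortex, 3TG frontal cortex, 3TG CA1, and the CA3 and DG samples of C57BL/6 mice (horizontal axis). Points are samples and bars are group means. F2r in 3TG frontal cortex spreads from 0.241 to 0.475, and F2rl2 lies above both wild-type samples.

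The single CA1 sample of a 3TG mouse had no wild-type CA1 beside it, so no test was made. Its beta values were 0.254 at F2r, 0.0987 at F2rl1, 0.788 at F2rl2 and 0.613 at F2rl3. Set beside the 9 CA3 and DG samples, F2r was below their lowest (0.299), F2rl2 above their highest (0.766) and F2rl3 below their lowest (0.640). These are the same directions as in 3TG frontal cortex. Over all CpGs 28.3% lay outside that range, and region, genotype and background differ together.

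Samples with an F in their code were set against those with an M, with region as a covariate (28 and 23 samples). The differences were 0.05 at F2r (95% interval -0.10 to 0.20), 0.12 at F2rl1 (-0.02 to 0.27), -0.12 at F2rl2 (-0.37 to 0.13) and -0.03 at F2rl3 (-0.25 to 0.20). None of the 4 passed (limma, adjusted p of 0.884 at F2rl1 and 0.991 at the others), and all 4 unadjusted p-values were 0.0925 or more. Of all CpGs 3.93% passed.

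The CpGs most like each gene were ranked by the Pearson correlation of the 11 region means. For F2rl2 they were Ush1g (0.94), a scaffold gene of hair cells, Id1 (0.92), an inhibitor of basic helix-loop-helix factors, and Spnb4 (0.91), a spectrin gene. P2rx1, an ATP-gated channel, was the most opposite at -0.89, with its highest region mean of 0.811 in DG and its lowest of 0.553 in PC. F2rl3 shared Spnb4 (0.94) and Id1 (0.91) with F2rl2, followed by Tomm20 (0.89), and Cysltr1, a leukotriene receptor gene, was most opposite (-0.87). Ush1g, Id1, Spnb4 and Tomm20 were all lowest in FC_WT and highest in PC. In these regions the median CpG of the array was shifted by -0.19 and 0.20. The part of that shift in the likeness was not tested.

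F2r was most like Gabra6 (0.85), a GABA-A receptor subunit gene, Sstr3 (0.85), a somatostatin receptor gene, and Pthr1 (0.84), a parathyroid hormone receptor gene. All of these were lowest in GCL. Cysltr2, the other leukotriene receptor gene, ran against F2r (-0.78), highest in GCL at 0.743 and lowest in CPU at 0.541. Drd4 (0.85) and Lgi4 (0.72) were among the CpGs most like F2rl1, neither with a regional difference that passed, and P2ry14 was most opposite (-0.67). These values have an n of 11 and share their arrays, and with Spearman correlation 2, 2 and 1 of the 3 most similar CpGs of F2r, F2rl2 and F2rl3 stayed.

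Few other genes of protease signalling were on the array. Of 60 listed genes of thrombin and protease-activated receptor signalling 4 had a CpG, F2, Klk8, Plg and Prss2. Klk8, a brain serine protease also called neuropsin, was the 1 that differed between regions (adjusted p = 0.00121), from 0.0529 in FC_WT to 0.103 in PC. F2, the gene of prothrombin, ran from 0.850 in CPU to 0.897 in DG and did not pass (adjusted p = 0.194). Plg, the plasminogen gene, and Prss2, a trypsinogen gene, did not pass (adjusted p = 0.161 and 0.185). The median range of region means was 0.0575 over the 4, beside 0.0496 over all CpGs.

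Among platelet receptor genes 3 of 6 on the array differed between regions, a share near the 44.5% of all CpGs: Tbxa2r, the thromboxane receptor gene, from 0.463 in DG to 0.813 in CPU (adjusted p = 7.69e-14), P2rx1 (adjusted p = 2.01e-11) and the vasopressin receptor gene Avpr1a (adjusted p = 0.0282). The median range of the 6 was 0.021. Receptor genes for nucleotides and lipids, close relatives of the protease-activated receptors in sequence, had 4 of 10 called, P2ry5, Cysltr2, Cysltr1 and Ptafr, with a median range of 0.103, likewise near that share. In 3TG frontal cortex 0 of the 4, 0 of the 6 and 0 of the 10 passed (limma), where 1.31% of all CpGs did.

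Marker genes of brain cell types were called about as often as all CpGs (44.5%). Gfap and Slc1a3, the 2 astrocyte markers on the array, both differed between regions. Their summed beta values ran from 0.441 to 0.847 in DG, 0.708 to 0.839 in CA3, 0.679 to 0.759 in GCL, 0.648 to 0.774 in PC and 1.01 to 1.08 in TH. Of 6 oligodendrocyte markers Gm98 and Gal3st1 differed, and the sums overlapped between regions, from 1.37 in PC to 2.03 in DG. None of 2 neuronal markers and 0 of 1 immune marker passed, and Tbxa2r, also listed for endothelium, did. No marker was at 0 in any sample (lowest 0.0375). Over the region means Gfap had a correlation of 0.80 with F2r and -0.01 with F2rl2, and Slc1a3 had -0.17 and 0.73. Their part in the receptor differences was not tested.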

How the data were processed

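The values are the authors' deposited beta values (fraction, 0 to 1) for 382 CpGs on 58 arrays. Per the labels' protocols, DNA was extracted with phenol, and bisulphite converted per the series design. The sources used here do not give scanner software, normalization or genome build. Deposited values ran from 0.0196 to 0.986.

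Groups follow the tissue and genotype labels. The CPU M4 arrays (correlation 0.987) were averaged. Beta was limited to 0.01 to 0.99 and tested as log2(beta / (1 - beta)) with limma 3.58.1 (R 4.3.3), using eBayes and p-values adjusted over the 382 CpGs by Benjamini-Hochberg (for pairs of regions, over CpGs and pairs together), at an adjusted p under 0.05. Regions were fitted over 53 samples, 3TG over all 13 groups, and F against M codes with region as covariate and the code as random block. Correlations of deviations used 100000 permutations within regions, without regard to the sample codes. Python 3.11.15, pandas 2.3.3 and matplotlib 3.10.9 read promoters and drew figures. The fits were tested on simulated data.

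The members, gene lists, marker lists and named genes (the 3 CpGs most like and 1 least like each member, and called list genes) were chosen with earlier results of these data known. A gene that this rule names is not reported here. Alternatives were other scales, limits, normalizations, filters, blocks and left-out samples.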

Additional observations from a re-analysis of the deposited data

Results flagged for a closer look

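Among 40 groups tested, 2 held a sample far from the others (Dixon's test at 95%), and chance flags about 1 in 20 groups. At F2r, CA3 M4 had a beta value of 0.440, while the other 3 CA3 samples lay between 0.375 and 0.384. At F2rl3, SN F2 had 0.698, while the other 5 SN samples lay between 0.787 and 0.807.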

How the results depend on the processing

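The regional F-tests of F2r and F2rl2 passed under all 15 alternatives and all 53 omissions of a sample, and so did the F2r differences of BLA, CPU, GCL and PC and the F2rl2 differences of CA3, GCL and PC. F2rl1 passed the F-test under none. The cause of the changes below was not tested. With the title form as covariate, the region fits take the title term from the DG samples alone. The FC_WT changes in those fits are therefore no evidence from FC_WT itself.

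The F2rl3 F-test had adjusted p = 0.0511 on untransformed beta, 0.112 with arrays centred, 0.0771 with CPU M4_a alone, 0.128 without FC_WT, 0.131 with the code letter as covariate and FC_WT also left out, 0.0988 without DG F7 to F9, 0.375 without FC_WT and DG F7 to F9 and 0.391 with the title form as covariate (these last 2 settings, like the other title-form fits, were chosen after the data were seen). The F2rl3 GCL difference lost its call at 0.44 without FC_WT, at 0.44 with the code letter and no FC_WT, at 0.40 without FC_WT and DG F7 to F9 and at 0.40 with the title form. That of FC_WT lost its call at -0.30 with quantile normalization, -0.43 with arrays centred and -0.090 with the title form. F2rl3 differed in 8 pairs with quantile normalization, 0 without FC_WT and DG F7 to F9 and 1 with the title form. Its regions numbered 1 with arrays centred, 0 with the title form and 0 in all 3 of these fits that left out FC_WT.

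For F2r, the SN difference lost its call at 0.19 with quantile normalization. The DG difference lost its call at -0.45 without DG F7 to F9, -0.40 without FC_WT too and -0.45 with the title form, where FC_WT lost its call at 0.55. The F2rl2 FC_WT difference lost its call at -0.64 with the title form. F2rl1 gained 2 pairs and 1 region with quantile normalization and with the title form, 1 of 45 pairs with the code letter and no FC_WT, 5 of 55 without DG F7 to F9 and 5 of 45 without FC_WT too.

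The labels do not say that a code such as F1 marks an animal, and the main region fits took the 53 samples as independent. In 149 pairs of same-coded samples the correlation of deviations ran from -0.55 to 0.88, with a median of 0.33 and 116 above 0.1. Other pairs had a median of -0.07. Same-coded samples were thus more alike by this median, and whether they are independent is not known. With the code as a fixed replicate block, without FC_WT, F2r differed in 19 of 45 pairs and F2rl1 in 1 pair. F2rl2 differed in 21 pairs and 3 regions, with the SN call lost (0.51, adjusted p = 0.0707). In that fit DG rested on DG F3 alone, set against CA3 F3, as codes M2, F7, F8 and F9 occur only in DG. Its differences of -0.18 at F2r and -0.76 at F2rl2 therefore cannot show whether the DG calls hold. The counts of pairs and regions include DG. F2rl3 had 0 pairs, 0 regions, an F-test adjusted p of 0.289 and a GCL difference of 0.48 that did not pass. As a random block the within-code correlation was -0.0178 and no call changed.

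In the 3TG comparison, F2rl2 passed on untransformed beta (0.165) and with frontal cortex alone (1.16), where F2r did not (-1.07). F2rl1 turned to 0.063 with the covariate for titles that begin with a genotype, whose term came from DG and 3TG frontal cortex alone. The F-coded difference of F2rl3 turned to 0.0135 with codes F1 to F4 and M1 to M4 only.

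Leaving out each sample, the F2rl3 F-test ran from 0.0070 to 0.0916, its pairs from 2 to 10, its regions from 1 to 3, FC_WT from -0.75 to -0.71 and GCL from 0.45 to 0.62. F2r FC_WT ran from 0.50 to 0.53 and SN from 0.35 to 0.42. F2rl1 pairs and regions ran from 0 to 2. In 3TG, F2r ran from -1.53 to -0.78 and F2rl1 from -0.48 to 0.14.

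The number of arrays sets the precision, and signal over background per value was not used here.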
